A study of Homo sapiens with 42 samples.

Results

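Polyadenylated RNA from K562 cells, a human chronic myeloid leukemia line that carries the BCR-ABL1 fusion, was compared between cells given 5 µM JTE-607 for 1 h (JTE 1h, 3 libraries) and untreated cells (CTRL, 3 libraries). These 6 libraries were taken by their labels from the 42 bulk RNA libraries of the series analysed here, which also hold JTE-607 at 6 and 18 h, imatinib (IM), KCl and nuclear RNA. Whether the untreated cells received a vehicle is not given in the sources used here. The libraries within a group came from separate biological experiments on 1 cell line. They held between 17855236 and 20323444 gene counts each, and every replicate pair differed by more than sampling noise (chi-square per gene between 15.1 and 32.7). The labelled line was checked on its genes: the fetal and embryonic globin genes HBG2 and HBE1 averaged 1251 and 1121 CPM (counts scaled to the same library size) in CTRL and the erythroid factor GATA1 averaged 166 CPM, while CD3E, MS4A1, PAX5 and ALB, which mark other lineages, fell below the count filter.

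JTE-607 is an ester prodrug that the carboxylesterase CES1 can cleave in cells, and its acid form binds CPSF3, the endonuclease that cuts the nascent transcript downstream of the AAUAAA hexamer. Cutting lets poly(A) polymerase add the tail and lets an exonuclease pursue RNA polymerase II, which ends transcription. When cutting fails the polymerase can run on past the gene's end, and RNA from that stretch can be counted on whatever annotated gene lies there. CPSF3 itself read 156, 163 and 136 CPM in CTRL and 175, 169 and 150 CPM in JTE 1h, groups that overlapped (log2 fold change 0.12, SE 0.10, adjusted p = 1.0). CES1 had 0 or 1 count in each of the 6 libraries, at or under the limit of 3 counts that a count of 0 allows.

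After 1 h, few genes had moved. Of 18095 genes tested, 154 were called (0.851%): 70 were higher with JTE-607 (0.387% of those tested) and 84 were lower (0.464%), where a called gene had an adjusted p under 0.05 in edgeR's quasi-likelihood test and a log2 fold change beyond 0.6. The 3 JTE 1h libraries lay apart from the 3 CTRL libraries for each of the 154, as they did for 4.45% of all genes in the upward and 6.73% in the downward direction. The largest changes named below were picked with this as a condition, so it is no further evidence for them. The called rises were large and sat on genes with little RNA: their median log2 fold change was 2.14, and 45 of the 70 averaged under 1 CPM in CTRL, against 25.4% of all genes tested. The called falls were smaller, with a median of -0.97, and sat on genes with a median of 9.39 CPM. The median over all genes was 0.01. Groups were small, and the number of calls depended on how the spread was estimated: with only the 6 libraries in the edgeR fit it was 5 (863 genes at an unadjusted p under 0.05), with the same 6 libraries in DESeq2 it was 98, and without JTE 1h replicate 3 it was 62.

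**Figure D1:**
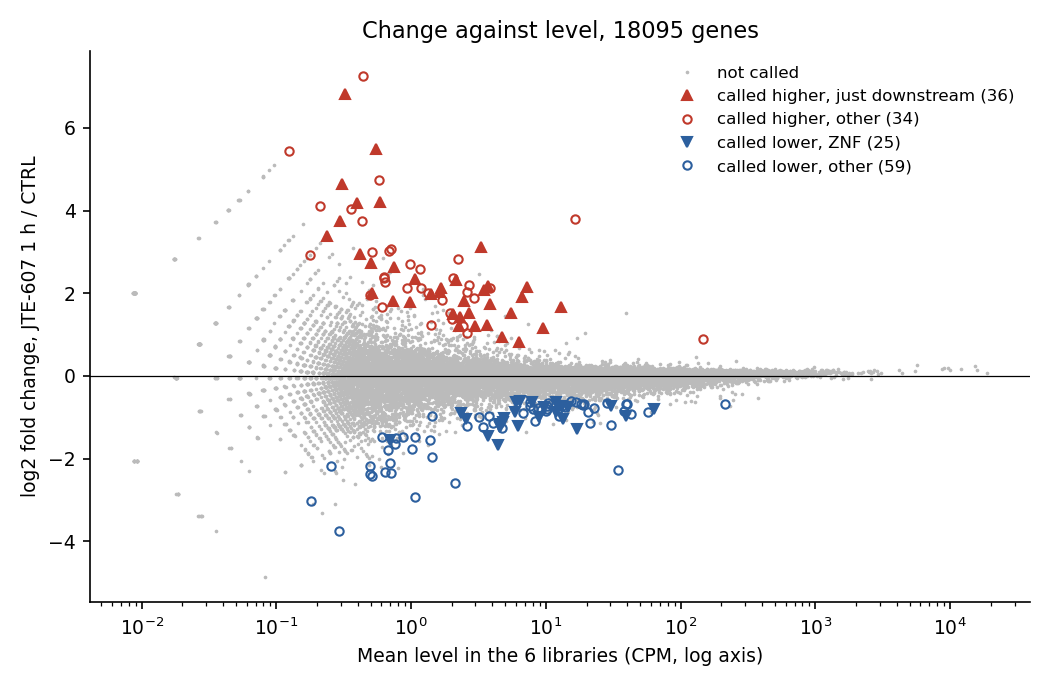
Log2 fold change of JTE 1h over CTRL (vertical axis) against the mean CPM of the 6 libraries (horizontal log axis), 1 point a gene. Red points are the 70 genes called higher, triangles the 36 within 10000 bases past an expressed gene on the same strand, and blue points are the 84 called lower, triangles being ZNF genes (25); the red points lie mostly at low levels, and fitted values at the left edge, where CTRL counts were 0, depend on the prior count.

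The higher genes clustered behind other genes. Of the 70, 36 (51.4%) began within 10000 bases past the end of an expressed gene on the same strand, an expressed gene being one that averaged 10 CPM or more in CTRL, whereas 9.59% of all tested genes and 9.17% of those under 10 CPM had that position. Another 11 faced an expressed gene within 10000 bases, on the opposite strand with their 3′ ends toward each other (7.68% of tested genes did), 12 overlapped an expressed gene, 8 stood 10000 to 50000 bases away in these orientations and 3 had none of these positions: PCF11, LINC01004 and C18orf32. The same-strand position was taken before the facing one, so the 36 include genes, such as MASP2 and IFFO1, that also faced an expressed gene. Among the 856 low genes just downstream, 559 (65.3%) had a fold change above 0 and 4.21% were called higher. All 9337 low genes had a median log2 fold change of -0.02, and these 856 had one of 0.17. The upstream genes did not move with them: the 34 upstream genes of the 36 had a median log2 fold change of -0.02, 0 of the 34 were called in edgeR's test (1 was lower at an unadjusted p under 0.05 and 1 was called lower by DESeq2), and their median level of 113 CPM in CTRL compares with 52.1 CPM for the upstream genes of all 856. Counting ignored strand, so that RNA running past a facing gene and RNA of the counted gene cannot be told apart.

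The share of called rises was highest nearest to the gene upstream. Among genes under 10 CPM that overlapped no expressed gene, 21 of the 283 that began within 2000 bases past an expressed gene were called higher (7.42%, median log2 fold change 0.26). Between 2000 and 5000 bases it was 7 of 279 (median 0.14), and between 5000 and 10000 bases 8 of 294 (0.11). Beyond 10000 bases the share was lower still, with 5 of 425 up to 20000 bases, 3 of 686 up to 50000 bases and 13 of 4780 farther away (0.272%, median -0.03). A read-in score was taken per library without using the calls. It is the mean log2(CPM + 0.5) of 452 low genes within 10000 bases downstream of an expressed gene, minus that of 1970 low genes with no expressed gene within 10000 bases. Both of these sets were limited to genes that overlap no other annotated gene, expressed or not, unlike the low genes counted above. The score read -0.27, -0.42 and -0.24 in CTRL (mean -0.31 ± 0.10 SD, n = 3) and -0.18, -0.06 and 0.08 in JTE 1h (-0.05 ± 0.13, n = 3), a difference of 0.26 with no overlap between the groups.

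**Figure D2:**
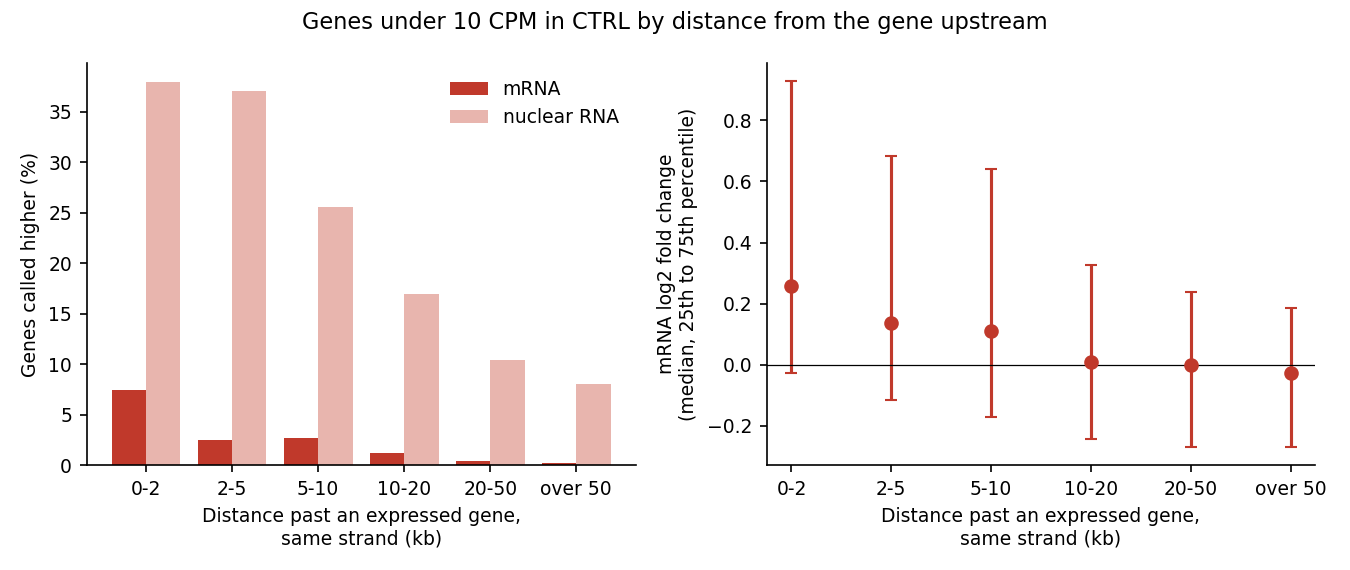
Genes under 10 CPM in CTRL that overlap no expressed gene, grouped by distance past the nearest expressed gene on the same strand (horizontal axes, kb). The left panel gives the percentage called higher after 1 h of JTE-607 in mRNA and in nuclear RNA, and the right panel the median mRNA log2 fold change with the 25th to 75th percentiles; the mRNA share goes from 7.42% nearest to the gene to 0.272% beyond 50000 bases.

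The stretch where cutting would occur is shown for genes that stand upstream of called rises, because the hexamer there is what the CPSF complex reads. Of these rises, FAM83E is not described below. It averaged 0.05 CPM in CTRL, near the floor, and 1.11 CPM in JTE 1h (log2 fold change 4.21). Each line gives the last 30 bases of the annotated gene (GRCh38, read 5′ to 3′ on the gene's strand), with AATAAA or ATTAAA in capitals where a search of the 30 bases on that strand found one.
MIR142HG, chr17:58330884-58330913, minus strand, upstream of TSPOAP1: ccaatgctAATAAAgactggactgtgcttc
CAPN7, chr3:15252889-15252918, plus strand, upstream of SH3BP5-AS1: ccaatagctgAATAAAgtatagatactatt
MRPS18B, chr6:30626366-30626395, plus strand, upstream of ATAT1: cacAATAAAgctctactgtctctggtttgc
RPL18, chr19:48615328-48615357, minus strand, upstream of FAM83E: ctcttATTAAAaagatttttgctgacagtg
SRM, chr1:11054584-11054613, minus strand, upstream of MASP2: accaaacacgtgtatttatagcaaagattg
The SRM window held neither word. Across the last 50 bases, 76.4% of the 8237 expressed protein-coding genes held one of the words, and so did 26 of the 33 protein-coding upstream genes of the called rises (78.8%), so the presence of a hexamer at the annotated end was about as common behind called rises as elsewhere.

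TSPOAP1, which encodes a scaffold protein known from presynaptic active zones, rose more than any other gene above 5 CPM. It read 2.54, 1.52 and 2.51 CPM in CTRL and 23.5, 31.1 and 37.3 CPM in JTE 1h. All JTE 1h libraries were far above all CTRL libraries (log2 fold change 3.81, SE 0.30, adjusted p = 1.09e-07 in edgeR's test), and the call held without any of the 6 libraries in turn. The gene lies on chromosome 17 at 58301228-58328760, minus strand (GRCh38, GENCODE 44), 2124 bases past the end of MIR142HG, the host of the blood microRNA miR-142. MIR142HG read 12.3, 5.34 and 10.7 CPM in CTRL and 4.72, 6.84 and 2.30 CPM in JTE 1h. Its groups overlapped and it was not called (log2 fold change -1.03, SE 0.44, adjusted p = 0.524), though with no filter on low counts it was (-1.01, adjusted p = 0.00187). TSPOAP1 is not counted among the 36 because MIR142HG averaged 9.45 CPM, just under the level used for an expressed gene, and the nearest gene above that level, SUPT4H1, stands 16415 bases upstream.

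Other genes that rose above 5 CPM also stood behind or faced expressed genes. GNRH1, which encodes the precursor of gonadotropin-releasing hormone, is normally made by hypothalamic neurons. It stands 3193 bases past KCTD9 and went from 1.27, 1.41 and 1.28 CPM in CTRL to 5.40, 6.53 and 5.02 CPM in JTE 1h (log2 fold change 2.09, SE 0.25, adjusted p = 4.54e-05). KCTD9 changed by -0.05 and was not called. ZNNT1, a long non-coding RNA 8249 bases past ZNF706, went from 1.21, 1.26 and 1.56 to 4.51, 5.18 and 8.49 CPM (2.17, SE 0.28, adjusted p = 7.23e-05), while ZNF706 changed by -0.08. MASP2, a serine protease of the lectin complement pathway, stands 7351 bases past SRM and read 3.64, 1.36 and 3.34 CPM in CTRL against 6.13, 11.7 and 13.7 CPM (1.92, SE 0.36, adjusted p = 0.00705). MASP2 also faces the expressed gene TARDBP at 103 bases, and RNA from these neighbors cannot be told apart in counts that ignore strand. SH3BP5-AS1, an antisense transcript 1266 bases past CAPN7, read 6.34, 4.61 and 6.69 against 9.75, 14.4 and 15.3 CPM (1.16, SE 0.23, adjusted p = 0.0116). ATAT1, the α-tubulin acetyltransferase, stands 447 bases past MRPS18B and showed the smallest called rise, from 4.90, 3.98 and 4.74 to 6.92, 8.39 and 8.65 CPM (0.81, SE 0.17, adjusted p = 0.0191). SGPP2, a sphingosine-1-phosphate phosphatase that faces FARSB 9588 bases away, read 1.82, 0.68 and 1.78 against 2.83, 7.20 and 8.75 CPM (2.13, SE 0.47, adjusted p = 0.0252). Every JTE 1h library exceeded every CTRL library in each of these genes, which the rule for naming them required. The calls of GNRH1 and ZNNT1 held without any single library. Those of MASP2 (without JTE 1h replicate 3 or CTRL replicate 2, adjusted p up to 0.0597), SH3BP5-AS1 (without JTE 1h replicate 2 or 3 or CTRL replicate 2, up to 0.0984), ATAT1 and SGPP2 (each without any library but JTE 1h replicate 1, up to 0.134 and 0.20) did not.

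**Figure D3:**
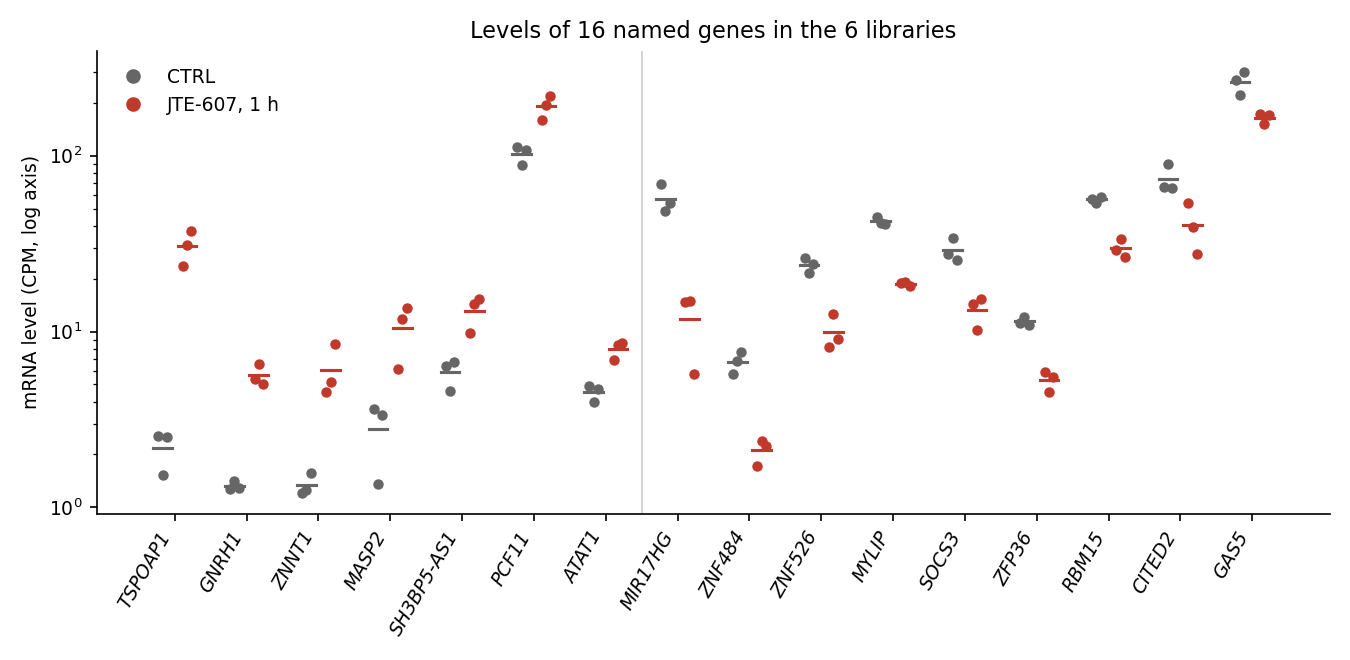
CPM (vertical log axis) of 16 named genes in each CTRL library (gray points) and each JTE 1h library (red points), with bars at the group means of 3. The 7 genes left of the line were called higher and the 9 to the right lower, and no group pair overlaps. Most of these genes were named by a rule that required this.

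Several genes with little RNA in CTRL were named after their values had been seen, for what they encode. CD74, the invariant chain of MHC class II, faces TCOF1 at 1329 bases and went from 0.17, 0.10 and 0.17 to 0.58, 1.40 and 1.81 CPM, on 3, 2 and 3 counts in CTRL and 11, 27 and 34 in JTE 1h (log2 fold change 3.07, adjusted p = 0.0437). That call was lost without any 1 library but JTE 1h replicate 1, with an adjusted p of up to 0.271. DENND2B, a Rab exchange factor that overlaps RPL27A on the other strand, went from 0.55, 0.63 and 0.45 to 2.36, 4.25 and 5.18 CPM (2.84, adjusted p = 7.23e-05). OSBPL10, an oxysterol-binding protein gene facing STT3B, went from 0.11, 0.21 and 0.11 to 0.84, 1.66 and 1.17 CPM, on 2, 4 and 2 counts in CTRL (3.03, adjusted p = 0.00406). EPB41L4A, which overlaps EPB41L4A-AS1, went from 0.50, 0.52 and 0.95 to 2.31, 2.80 and 5.12 CPM (2.37, adjusted p = 0.000563). The calls of DENND2B, OSBPL10 and EPB41L4A held without any single library.

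MMP14, a membrane-bound matrix metalloprotease 1520 bases past MRPL52, went from 1.60, 1.94 and 1.78 to 4.93, 4.82 and 2.67 CPM (log2 fold change 1.22, adjusted p = 0.0252, lost without any 1 library but JTE 1h replicate 3, up to 0.139). UBE2C, the ubiquitin-conjugating enzyme of the anaphase-promoting complex, stands 1149 bases past DNTTIP1 and was listed at 0.55, 0.31 and 0.45 CPM in CTRL and 1.41, 1.35 and 1.76 CPM in JTE 1h (1.78, adjusted p = 0.00754, lost without JTE 1h replicate 3 or CTRL replicate 2). IFFO1, 780 bases past NOP2 and facing GAPDH at 1 base, held 0, 1 and 0 counts in CTRL and 7, 15 and 12 counts in JTE 1h. 3 called genes had no count in any CTRL library. CYP26C1, 1315 bases past EXOC6, held 13, 9 and 15 counts in JTE 1h, at least 3.98-fold above the floor of 3 counts per CTRL library; YAP1P1 held 6, 10 and 34 counts (at least 5.41-fold) and LDLRAD4 5, 3 and 6 counts (at least 1.51-fold). With these 3 at their bounds the median of the 70 was 2.12. C18orf32 overlaps the annotated readthrough gene RPL17-C18orf32, so its counts (24, 27 and 29 in CTRL, 56, 50 and 87 in JTE 1h) depend on how shared reads were assigned.

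PCF11 was the only one of the 70 that averaged 10 CPM or more in CTRL. It encodes the cleavage factor II subunit that bridges the RNA polymerase II tail and the cleavage machinery. It was the only called gene of 21 cleavage and polyadenylation factors tested (1 higher, 0 lower, list median 0.06). Of all genes tested, 0.387% were called higher. PCF11 read 112, 88.1 and 108 CPM in CTRL and 160.0, 195 and 218 CPM in JTE 1h. The groups did not overlap (log2 fold change 0.90, SE 0.11, adjusted p = 7.23e-05), the call held without any single library, and the level was the highest of any of the 70 genes. ANKRD42-DT, which shares 2961 bases with PCF11 on the opposite strand, went the other way, from 8.16, 6.34 and 5.52 to 2.20, 3.99 and 2.19 CPM (-1.25, SE 0.29, adjusted p = 0.0304). Leaving out JTE 1h replicate 1 or 3 or CTRL replicate 1 or 2 ended that call (adjusted p up to 0.247), and reads in the shared stretch cannot be assigned to a strand in these counts. Of 15 Integrator subunits none was called in edgeR's test (list median 0.04, 2 lower at an unadjusted p under 0.05, 0 called by DESeq2), and of 26 termination and elongation factors only ELL was, a subunit of the super elongation complex, at 22.8, 19.6 and 18.5 CPM in CTRL and 14.5, 14.7 and 10.2 CPM in JTE 1h (-0.63, SE 0.15, adjusted p = 0.0351, lost without JTE 1h replicate 3 or any CTRL replicate, up to 0.324). Of all 18095 genes, 0.464% were called lower and 899 were lower at an unadjusted p under 0.05.

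Zinc finger genes formed the largest group among the falls. ZNF genes mostly encode transcription factors with tandem C2H2 fingers, many of them with a KRAB domain that silences transposable elements, and a large part of them sits in clusters on chromosome 19. Of 459 tested, 25 were lower (5.45%, against 0.464% of all genes) and 0 were higher in edgeR's test (2 at an unadjusted p under 0.05), while DESeq2 called 27 lower and 1 higher. 353 of the 459 had a fold change below 0, with a median of -0.20 (25th to 75th percentile -0.43 to -0.02), where the other 17636 genes had a median of 0.01. The 223 on chromosome 19 had a median of -0.27 with 14 lower, and the 236 elsewhere a median of -0.15 with 11 lower. The other 1050 genes tested on chromosome 19 had a median of 0.03, with 3 lower and 6 higher.

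**Figure D4:**
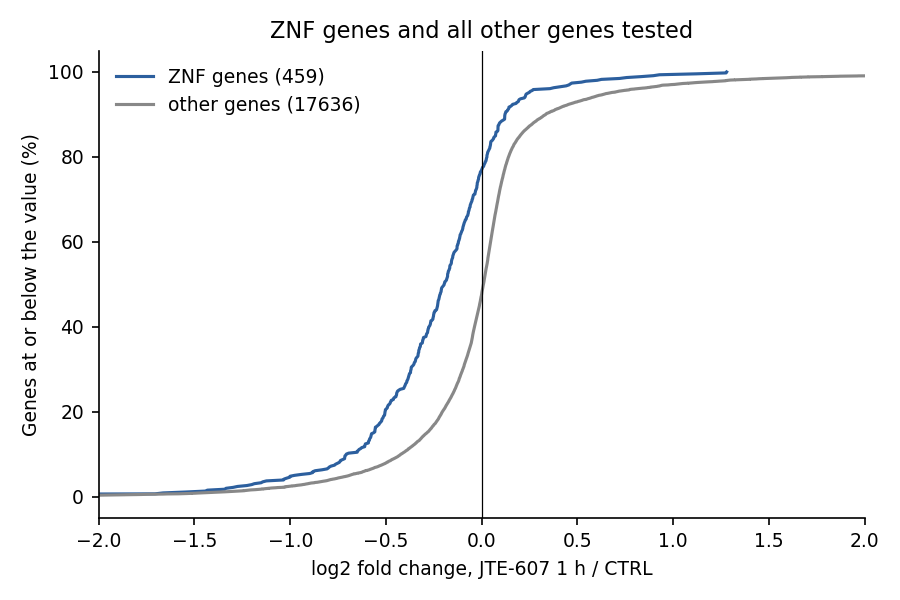
Cumulative percentage of genes (vertical axis) at or below each log2 fold change of JTE 1h over CTRL (horizontal axis, shown from -2 to 2) for 459 ZNF genes and the 17636 other genes tested. The ZNF curve lies to the left, with a median of -0.20 against 0.01.

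ZNF484 had the largest fall of the 25 called ZNF genes. It read 5.73, 6.81 and 7.64 CPM in CTRL and 1.73, 2.38 and 2.24 CPM in JTE 1h (log2 fold change -1.66, SE 0.22, adjusted p = 0.00011). ZNF79 went from 5.95, 6.02 and 4.29 to 2.15, 2.43 and 1.39 CPM (-1.44, SE 0.21, adjusted p = 0.000332). ZNF526, at 26.3, 21.4 and 24.3 CPM in CTRL, read 8.12, 12.6 and 9.02 CPM in JTE 1h (-1.28, SE 0.17, adjusted p = 0.000153), and ZNF649 fell from a mean of 8.66 to 3.77 CPM (-1.20, SE 0.20, adjusted p = 0.0026). In these 4 the groups stood clear of each other, as the rule for naming them required, and the call held without any single library. ZNF800, the most abundant called member, went from 88.9, 72.6 and 79.8 to 43.8, 58.4 and 36.8 CPM (-0.80, SE 0.16, adjusted p = 0.0099). ZNF878, ZNF543 and ZNF695 were also called, at -1.54, -1.15 and -1.23. The calls of these 4 were lost without JTE 1h replicate 3 and without 1 to 4 other libraries each, with an adjusted p of up to 0.125 for ZNF800 and 0.183 for ZNF878.

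MIR17HG, the host transcript of the miR-17-92 cluster, showed the largest fall among genes above 5 CPM. It read 68.9, 48.1 and 54.0 CPM in CTRL and 14.7, 14.9 and 5.71 CPM in JTE 1h, with no overlap (log2 fold change -2.28, SE 0.31, adjusted p = 0.000219), and the call held without any single library. It lies on chromosome 13 at 91347820-91354579, plus strand, and was the only one called of 26 microRNA host genes tested (list median -0.14). Of these hosts, 4 were lower and 1 higher at an unadjusted p under 0.05 in edgeR's test. Of all 18095 genes, 0.464% were called lower, and 899 were lower and 442 higher at that p. The cluster's main mature products, taken from RefSeq with their seeds (bases 2 to 8) in capitals, are shown because the host carries 3 seed families; the mature microRNAs themselves were not measured by these libraries.
hsa-miR-17-5p: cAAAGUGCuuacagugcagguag
hsa-miR-20a-5p: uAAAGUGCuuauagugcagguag
hsa-miR-18a-5p: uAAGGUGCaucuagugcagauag
hsa-miR-19a-3p: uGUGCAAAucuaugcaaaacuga
hsa-miR-19b-3p: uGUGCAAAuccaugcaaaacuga
hsa-miR-92a-3p: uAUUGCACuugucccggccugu
miR-17-5p and miR-20a-5p share a seed, as do miR-19a-3p and miR-19b-3p.

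Other abundant genes fell by a smaller amount. MYLIP, the E3 ligase that targets the LDL receptor, read 44.8, 41.6 and 41.0 CPM in CTRL and 18.8, 19.1 and 18.1 CPM in JTE 1h, with little spread in either group (log2 fold change -1.18, SE 0.12, adjusted p = 3.94e-06). RBM15, an RNA-binding subunit of the m6A writer complex, went from 56.9, 53.6 and 58.5 to 28.9, 33.5 and 26.6 CPM (-0.92, SE 0.09, adjusted p = 4.4e-06). Both calls held without any single library. GAS5, a snoRNA host, was the most abundant of the 84, at 269, 222 and 299 CPM in CTRL and 171, 151 and 170 CPM in JTE 1h (-0.68, SE 0.15, adjusted p = 0.0191), and AUNIP, an Aurora A partner, went from a mean of 49.1 to 30.5 CPM (-0.69, adjusted p = 0.0279). Leaving out JTE 1h replicate 2 or 3 or CTRL replicate 3 ended both calls, as did CTRL replicate 1 for GAS5 (up to 0.117) and CTRL replicate 2 for AUNIP (up to 0.173). GAS5 was the only one called of 26 snoRNA host genes in edgeR's test (list median -0.11), where 0.464% of all genes were called lower. DESeq2 called 2 of the hosts lower, and 4 were lower and 2 higher at an unadjusted p under 0.05 in edgeR's test. Of all 18095 genes, 899 were lower and 442 higher at that p. SNHG1 passed the adjusted p of edgeR's test (0.0423) but not the fold change threshold (-0.52). BTN2A3P, a butyrophilin pseudogene, was lower too (-1.13, lost without JTE 1h replicate 3 or CTRL replicate 3, adjusted p up to 0.0888), with reads that a near-identical butyrophilin gene could share. The 84 also held 6 snoRNA genes of 43 tested, where 0.464% of all genes were called lower. Of these, SNORD99 had 47, 18 and 39 counts in CTRL and 5, 1 and 8 in JTE 1h (not called when JTE 1h replicate 2 or CTRL replicate 1 was left out). It was named after its values were seen, and small RNAs are poorly represented in poly(A)-selected libraries.

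Most short-lived regulators of signaling had values below 0, few of which passed the test. Of 27 immediate early and short-lived regulators, 26 had a fold change below 0 (median -0.39), 10 were lower at an unadjusted p under 0.05, and 2 were called lower. Over all 18095 genes, 8765 were below 0, 899 were lower at that p and 0.464% were called lower. ZFP36, which brings decay factors to AU-rich mRNAs, read 11.2, 12.1 and 10.9 CPM in CTRL and 5.92, 4.56 and 5.50 CPM in JTE 1h (-1.10, SE 0.15, adjusted p = 0.000141, held without any single library). DUSP1, a MAP kinase phosphatase, read 10.4, 10.7 and 11.7 against 7.02, 6.48 and 5.66 CPM (-0.78, SE 0.15, adjusted p = 0.0099, lost without JTE 1h replicate 3 or CTRL replicate 3). JUN, BTG2 and MYC had values of -0.80, -1.17 and -0.59 and were not called (adjusted p = 0.278, 0.0966 and 0.659).

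Of 16 STAT5 and ERK feedback genes, 14 were below 0 (median -0.34, 6 lower at an unadjusted p under 0.05) and 1 was called. That was SOCS3, a JAK inhibitor, at 27.6, 34.0 and 25.5 CPM in CTRL and 14.4, 10.2 and 15.2 CPM in JTE 1h (-1.13, SE 0.26, adjusted p = 0.0304). Of 10 ID, SMAD and CITED genes all 10 were below 0 (median -0.40, 3 lower at that p), where 8765 of all 18095 genes were below 0 and 899 lower at that p, and CITED2, a CBP/p300-binding regulator, was the only one called (66.1, 89.4 and 65.1 against 53.8, 39.5 and 27.7 CPM, -0.87, SE 0.20, adjusted p = 0.0363). The SOCS3 call was lost without any 1 library but CTRL replicate 3 (up to 0.172), and the CITED2 call without any but JTE 1h replicate 1 (up to 0.304). The SOCS family members SOCS5 (-0.72, adjusted p = 0.0191) and SOCS6 (-0.85, adjusted p = 0.00261), named after their values were seen, were lower as well; leaving out replicate 1 or 3 of either group ended the SOCS5 call (up to 0.165), and that of SOCS6 held.

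In 8 further lists no gene was called in edgeR's test, and DESeq2 called 1, a histone gene that was higher. The 20 erythroid genes had a median of 0.03 and ranged around 0, with 1 lower at an unadjusted p under 0.05 (TAL1, -0.32). The 12 p53 and GADD45 stress genes had a median of -0.11 (1 lower at that p), and the 17 ATF4 and amino acid stress genes -0.04, the 14 heat shock genes 0.05, the 19 SR proteins and their kinases -0.06 and the 25 nucleolar genes 0.04, with none at that p. The 42 replication-dependent histone genes, whose mRNAs are cut by CPSF3 without being polyadenylated, had a median of 0.05 (3 higher at that p), and the 82 cytosolic ribosomal protein genes a median of 0.11 (5 higher, 1 lower). Only 5 of these 82 had a fold change below 0. In 34 of the 82 all JTE 1h libraries lay above all CTRL libraries and in 2 all lay below, where 4.45% and 6.73% of all genes did. Antisense and divergent transcripts had medians below 0. Of 510 genes named -AS, 2 were higher and 3 lower (0.39% and 0.59%, median -0.11). SH3BP5-AS1 and PSMD6-AS2 were higher, and RBM12B-AS1 and MATN1-AS1 were among the lower. Of 238 named -DT, ANKRD42-DT alone was called, as lower (0.42%, median -0.17). These shares were near those of all genes, 0.387% higher and 0.464% lower. Leaving out any 1 library but JTE 1h replicate 1 ended the call of MATN1-AS1 (adjusted p up to 0.209), JTE 1h replicate 1 or 2 or CTRL replicate 1 or 3 that of RBM12B-AS1 (up to 0.109), and CTRL replicate 3 that of PSMD6-AS2 (0.072).

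Nuclear RNA, sequenced after rRNA depletion from 6 other libraries (3 JTE 1h, 3 CTRL), was compared for the same genes. There 1868 of 21929 genes were called, 7.0% higher and 1.51% lower. All 70 genes that were higher in mRNA were tested in nuclear RNA and 67 were called higher there, where 5.66% of the 16728 genes tested in both fractions were (median nuclear log2 fold change 1.96). TSPOAP1 rose by 3.98 in nuclear RNA, DENND2B by 3.33, OSBPL10 by 5.31, ZNNT1 by 2.39 and PCF11 by 0.88. SH3BP5-AS1, at 0.54, was among the 3 not called. Of the 84 falls, 17 were called lower in nuclear RNA (1.33% of genes tested in both were), with a median of -0.37 and 77 of 84 below 0. ZNF526 (-1.08), SOCS3 (-1.10), DUSP1 (-0.96) and MIR17HG (-0.65) were called lower in both, whereas ZNF484 (-0.13), ZNF800 (0.06), RBM15 (-0.24) and MYLIP (-0.52, adjusted p = 0.00768) were not. The 459 ZNF genes had a nuclear median of -0.03, with 10 lower and 6 higher. Blocking on the numbers that pair the nuclear libraries gave 10 lower and 11 higher ZNF genes of 454 tested. The difference between the fractions was not tested here.

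JTE 1h was also compared with imatinib at 1 h (1 µM), another drug given for the same time, in whose libraries 3 genes were called against CTRL (0.0166%). 76 genes were higher with JTE-607 than with imatinib (0.42% of those tested) and 121 lower (0.669%). The replicate numbers paired these libraries, and with the replicate number as a block in the 6 libraries 162 were higher (1.05% of 15418) and 364 lower (2.36%). In that blocked fit TSPOAP1 (3.58), PCF11 (0.90), ZNF484 (-1.63), ZNF526 (-1.20), RBM15 (-1.03), MYLIP (-1.0), MIR17HG (-2.49) and GAS5 (-0.73) were called in the direction seen against CTRL. Of 423 ZNF genes tested there 45 were lower and 2 higher (median -0.20). The immediate early list differed: its median against imatinib was -0.02, with 4 lower and 2 higher of 24, and its median for imatinib against CTRL was -0.26. The STAT5 and ERK feedback genes had a median of -0.28 for imatinib against CTRL and 0.14 for JTE-607 against imatinib, with 4 higher, among them SOCS3 (1.99). These comparisons share the JTE 1h or the CTRL libraries, so each is given for its own values.

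**Figure D5:**
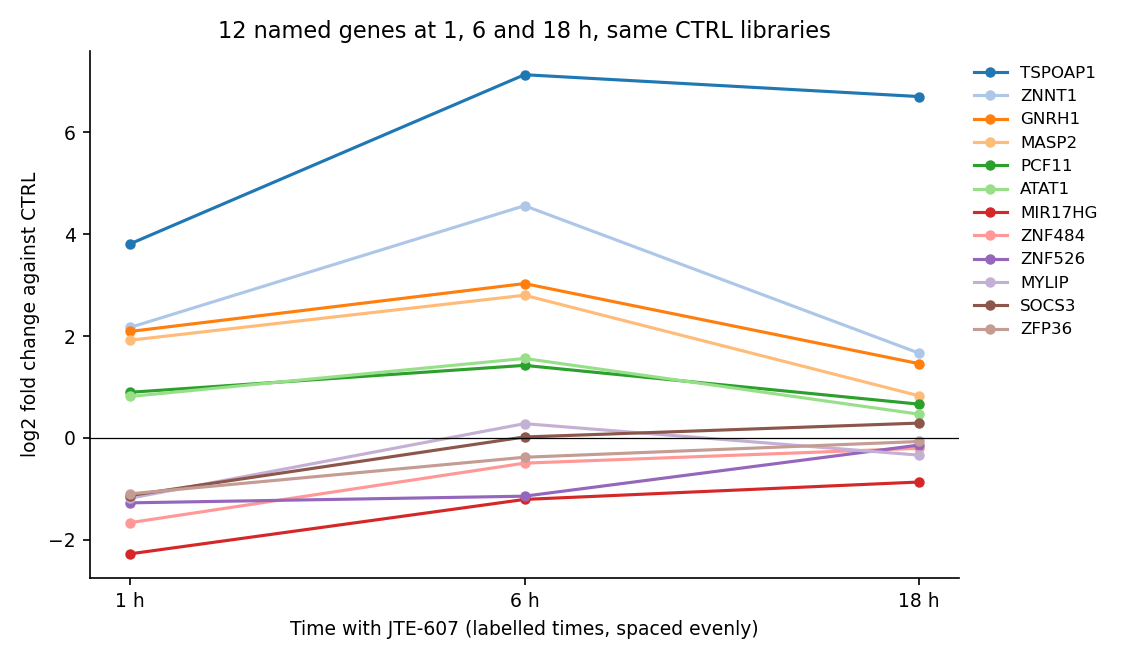
Log2 fold change against the same 3 CTRL libraries (vertical axis) for 12 named genes at 1, 6 and 18 h of JTE-607 (horizontal axis, times spaced evenly), each point from 3 libraries. TSPOAP1 reads 3.81, 7.13 and 6.70, and MIR17HG -2.28, -1.21 and -0.87.

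The later times of the same drug were set beside 1 h, all against the same CTRL libraries. The 70 rises had a median log2 fold change of 2.14 at 1 h, 3.11 at 6 h and 1.30 at 18 h, and the 84 falls -0.97, -0.53 and -0.19. Both sets were chosen on their values at 1 h, which favors medians farther from 0 at 1 h than later. The test of 6 h against 1 h uses the same JTE 1h libraries, so for both sets a move back toward CTRL is partly built in. Tested directly at 6 h against 1 h, 1671 genes were called (9.23%), 923 higher at 6 h (5.1%) and 748 lower (4.13%). Of the 70 rises 29 were higher still at 6 h and 0 lower in edgeR's test (2 lower at an unadjusted p under 0.05), where DESeq2 called 28 higher and 1 lower. The replicate numbers pair these libraries, and with the number as a block in the 6 libraries, chosen after seeing the data, 39 were higher (7.55% of all genes in that fit were) and 1 lower (6.5%) of the 66 that could be tested. The 1 lower was OSBPL10 (-1.31, SE 0.34, adjusted p = 0.00886 in the blocked fit, against -1.29 and 0.0553 without the block). MASP2 (0.87, adjusted p = 8.91e-05), SGPP2 (0.92, 0.000178) and UBE2C (0.64, 0.0462) were called higher at 6 h in that fit and not without the block. TSPOAP1 rose by a further 3.32 (adjusted p = 2.21e-08), ZNNT1 by 2.39 and MMP14 by 2.27. PCF11 stood at 0.90, 1.42 and 0.66 at 1, 6 and 18 h. Of the 84 falls 30 were higher at 6 h than at 1 h and 2 lower, and in the blocked fit 28 and 3 of the 70 tested there, with ZNF543 among the higher (0.64, adjusted p = 0.037). MYLIP returned from -1.18 to 0.28 and -0.34, and SOCS3 from -1.13 to 0.02 and 0.29, while ZNF526 stayed at -1.14 at 6 h before reading -0.14 at 18 h. Of the 25 lower ZNF genes, 9 were called lower at 6 h (6.47% of all genes were) and 1 at 18 h (2.09%).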

How the data were processed

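Per the methods and labels, the authors removed adapters and identical read pairs with fastp, aligned unique reads to hg38 (GRCh38.p14 in the labels) with STAR (introns of at most 10000 bases), and counted read pairs over exons with featureCounts. The annotation release is not given in the sources used here. No strand option is named although the libraries keep strand. The deposited values used here are raw counts per gene. CPM used TMM-scaled library sizes.

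The comparison was fitted with edgeR 4.0.16 (quasi-likelihood, robust) on all 27 mRNA libraries in 9 groups after filterByExpr, with Benjamini-Hochberg adjustment over all genes; a call needed a log2 fold change beyond 0.6 with an adjusted p under 0.05. The 15 nuclear libraries were fitted likewise. DESeq2 1.42.0, other normalizations, filters and leaving out each library were alternatives. Of 58243 gene IDs, 57532 were found in GENCODE 44, which gave symbols and positions; sequences came from the GRCh38 genome and RefSeq.

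Named genes were the 10 largest called changes each way with a symbol, 5 CPM in the higher group and no overlap, the 5 most abundant called genes each way, up to 4 called members of each list, and CPSF3, CES1, MIR142HG, TSPOAP1 and upstream neighbors. The members, lists and rules were chosen with earlier results of these data known. Same-numbered JTE 1h and IM 1h (r 0.824 to 0.844), JTE 6h and JTE 1h (0.649 to 0.798) and nuclear JTE 1h and CTRL libraries (0.39 to 0.763) deviated together from their group means, so these numbers pair samples. On simulated counts for 17291 genes of the JTE 1h comparison, 29.9%, 83.6% and 98.5% of genes changed 1.5-, 2- and 4-fold were called. The changed genes were drawn only from those averaging over 2 CPM, so genes of lower level, where most called rises sat, were not covered. A 1.5-fold change lies under the log2 threshold of 0.6, which by itself limits that share. The simulated libraries held no shared replicate effects, unlike the real ones.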

Additional observations from a re-analysis of the deposited data

Results flagged for a closer look

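In 22 of the named genes the level differed between 6 h and 1 h of JTE-607 by a direct test of the 2 groups (edgeR, adjusted p under 0.05 and a log2 difference beyond 0.6). Of all genes, 9.23% passed. Nearly all of the named genes were chosen on their values in the JTE 1h libraries, which this test uses again. That choice by itself favors differences back toward CTRL, so the 9.23% is no like-for-like background for them. Among genes called higher at 1 h, the log2 difference of 6 h over 1 h was 3.32 for TSPOAP1, 2.39 for ZNNT1, 2.27 for MMP14, 1.41 for PSMD6-AS2, 1.33 for IFFO1, 1.30 for SH3BP5-AS1, 0.94 for GNRH1 and 0.75 for ATAT1. Among those called lower at 1 h it was 3.82 for SNORD19C, 1.46 for MYLIP, 1.22 for SOCS6, 1.17 for ZNF484, 1.15 for SOCS3, 1.07 for MIR17HG, 0.90 for ZNF800, 0.87 for ZNF695, 0.75 for ZNF649, 0.73 for ELL, 0.72 for ZFP36, 0.68 for CITED2 and 0.64 for DUSP1. MIR142HG, not called at 1 h, was higher at 6 h by 1.40. SNORD19C held 13, 8 and 9 counts in CTRL and 1, 0 and 1 counts in JTE 1h, so its value rests on few reads. Groups of 3 were not tested for single libraries that stand apart.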

How the results depend on the processing

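The number of called genes in JTE 1h against CTRL was 154 and depended on the fit. It was 5 (4 higher, 1 lower) with only the 6 libraries in edgeR, 98 (42 higher, 56 lower) with those in DESeq2, 237 (118 and 119) with no filter on low counts and 33 (4 and 29) among genes with a mean of 10 CPM or more. DESeq2 on all libraries gave 195, of which 141 were among the 154, RLE scaling 148 and upper quartile scaling 136. Leaving out 1 library gave 62 to 158: 62 without JTE 1h replicate 3, 70 without CTRL replicate 1, 76 without CTRL replicate 2 and 93 without CTRL replicate 3. Of the 70 rises 23 and of the 84 falls 21 were called in all 6 of these fits. Same-numbered JTE 1h and CTRL libraries did not deviate together (r -0.224, -0.244 and 0.86), so the numbers do not pair them. JTE 1h replicate 1 correlated best with CTRL replicate 2 (0.868) and replicate 2 with CTRL replicate 1 (0.843), a hint from the data and not from the design, and the study's list of library sizes numbers these CTRL libraries in the opposite order. No pair was crossed; with the replicate block as numbered, which joins libraries that did not deviate together, the count was 258 in all mRNA libraries and, chosen after seeing the data, 13 in the 6. Against imatinib, 197 became 1 with only the 6 libraries and 62 to 194 without 1 library (62 without JTE 1h replicate 3, 126 without JTE 1h replicate 2, 112, 100 and 113 without IM 1h replicates 1, 2 and 3); the replicate block in the 6 libraries, also chosen after seeing the data, gave 526. For JTE 6h over JTE 1h and for nuclear RNA, where numbers pair, the block changed no call of a named gene besides those given above; SNORD19C, SNORD99 and ZNF878 were not tested in the 6-library fit. JTE 6h against JTE 1h went from 1671 to 800 with only the 6 libraries, and from 1288 to 1869 without 1 library. The nuclear count of 1868 stayed within 1.5 times under the alternatives run. The read-in difference of 0.26 was 0.28 with genes within 5000 bases, 0.15 within 50000 bases, 0.13 with a pseudocount of 2 CPM and 0.19 to 0.32 without 1 library. KCTD9, not called, ranged from -0.103 to 0.0354 without 1 library, with the sign changed without JTE 1h replicate 3 (0.0354) and without CTRL replicate 2 (0.0172). Causes were not tested. The 184 of 813 values of single named genes that lost their call kept their direction.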
